A study of Mus musculus with 11 samples.

Results

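The TIMP and MMP genes described here were 10 named genes of the matrix metalloproteinase system, Timp1, Timp2, Timp3, Timp4, Mmp2, Mmp3, Mmp7, Mmp12, Mmp14 and Mmp19. They were taken by symbol, and all 10 were found among the 54532 genes of the pancreas count table and the 46078 genes of the adipose count table. The choice of genes used no measured value of these libraries, but it was made with earlier results of the same data known.

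The study asked how the transcriptomes of the pancreas and of the epididymal fat change in obesity-related alcohol-induced acute pancreatitis (OA-AP) of the mouse. All mice were wild-type male C57BL/6J (C57BL/6 in the labels), 4 to 5 weeks old when the diets began. The labels give an age of 16 weeks for every sample. Control mice were kept on chow for the same 12 weeks and given saline. OA-AP mice received high-fat feed over 12 weeks, then ethanol at 2 g/kg intraperitoneally as 2 injections 1 h apart, with tissue taken 12 h after the first injection. Diet, ethanol and pancreatitis differed together between the groups, so their effects cannot be told apart here. Libraries of total RNA came from 5 pancreata, of 2 control and 3 OA-AP mice, and from 6 fat pads, 3 of each group. The sources used here do not say whether libraries of the same number came from the same mouse, and p-values measure only the spread between these samples.

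Matrix metalloproteinases (MMPs) are zinc-dependent enzymes that are made as inactive zymogens and cleave collagens, laminins, proteoglycans and other extracellular proteins once the propeptide is removed. Tissue inhibitors of metalloproteinases (TIMPs) bind the active site and block it, so the balance between both families is a usual measure of matrix turnover. Timp1 is an inducible, secreted inhibitor, Timp2 is widely expressed and also takes part in the activation of pro-MMP2 by MMP14, Timp3 is bound to the matrix, and Timp4 is abundant in fat and heart. In the pancreas these genes belong largely to stromal, ductal and inflammatory cells, and in fat they are expressed by stromal cells and adipocytes. RNA levels do not measure the enzymes' activity.

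Pancreas libraries held 14188832 to 17238919 counts and adipose libraries 20825177 to 27928097. Levels are CPM, counts scaled to a common library size and corrected by the trimmed mean of M-values (TMM), and CPM per kb of gene length where genes are compared with each other. The tissue labels held against marker genes: 12 acinar genes made up 48.8 and 50.4% of the counts in control pancreas and 38.3 to 41.8% in OA-AP pancreas, and 8 adipocyte genes summed to 31568 to 41847 CPM in fat against 29.0 to 81.7 CPM in pancreas. The fat library of control replicate 2 held 0.615% acinar counts, where the other fat libraries held at most 0.00169%. TMM factors of the pancreas libraries were 0.698 and 0.793 in control and 1.11 to 1.32 in OA-AP. Scaling by library totals alone shifted the median over all genes tested by 0.71 on the log2 scale in the pancreas and by -0.15 in fat. In bulk tissue, fewer cells of a type and less RNA per cell cannot be told apart.

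Mmp3, Mmp7 and Mmp12 lie in 1 cluster of MMP genes on mouse chromosome 9, which runs from Mmp13 to Mmp7, and they are the members whose RefSeq promoter windows held an AP-1 motif, the binding sequence of Fos and Jun dimers. Windows of 250 bases before to 50 after a start site (RefSeq, GRCm38.p6) were available for 8 of the 10 members. The motif TGANTCA, searched on both strands, was in 3 of the 10 windows of these 8 genes, 1 each of Mmp3, Mmp7 and Mmp12, and in 7.81% of 32851 windows of all genes. TATAAA, also searched on both strands, was in the same 3 windows and in 13.6% of all windows. The STAT motif TTCNNNGAA was in 0 of the 10 windows and in 8.30% of all. The 100 bases before the start are shown for these 3 genes, and for Timp1, the TIMP with the largest change, in which none of the motifs was found. All are on the plus strand, 5′ to 3′, with the AP-1 and TATAAA matches inside the run in capitals. The Mmp3 run is chr9:7445722-7445821, the Mmp7 run chr9:7691990-7692089, the Mmp12 run chr9:7347274-7347373, before the second of its 2 RefSeq starts, and the Timp1 run chrX:20870066-20870165.
Mmp3: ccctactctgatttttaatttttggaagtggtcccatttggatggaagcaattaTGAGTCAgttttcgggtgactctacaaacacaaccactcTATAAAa
Mmp7: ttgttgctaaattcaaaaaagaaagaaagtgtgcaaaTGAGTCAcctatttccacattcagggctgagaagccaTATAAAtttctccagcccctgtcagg
Mmp12: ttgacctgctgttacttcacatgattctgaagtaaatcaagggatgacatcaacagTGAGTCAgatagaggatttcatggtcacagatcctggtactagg
Timp1: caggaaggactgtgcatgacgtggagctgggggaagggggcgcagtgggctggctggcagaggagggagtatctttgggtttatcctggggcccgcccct
The AP-1 match began at base -46 of Mmp3, -63 of Mmp7 and -44 of Mmp12, counted from the start site. A match describes the letters of a window and is not a measured site.

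In the pancreas, Timp1, Mmp3 and Mmp7 rose in OA-AP, and these were the 3 of 9 tested members past the threshold, an adjusted p under 0.05 with a fold of at least 1.5. Over all 12884 genes tested, 29.8% passed it, 16.2% upwards and 13.5% downwards. None of the members passed it downwards. Mmp12 could not be tested, and Timp1, Timp4, Mmp3, Mmp7 and Mmp19 reached the filter on low counts through the OA-AP libraries where they were high, so the count of calls, the median and the count of groups without overlap over the tested members are descriptions that this filter favours. On the log2 scale the members' median change was 1.14, against 0.04 over all genes tested.

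Timp1 (ENSMUSG00000001131, GRCm38 chromosome X, 20870166 to 20874735, plus strand) had 0 and 5 counts in the control pancreata and 51, 45 and 68 in OA-AP. That is 0 and 0.499 CPM against 2.68, 2.57 and 3.56 CPM. The groups did not overlap, and every OA-AP library was above both controls. The log2 fold change was 3.60 ± 0.77 (SE), with an adjusted p of 0.010 in the edgeR quasi-likelihood test. Its size rested on the 5 counts of control replicate 2, since it was 8.63 without that library, against a group at 0, and 2.55 without control replicate 1.

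Mmp3, or stromelysin-1, which degrades proteoglycans and activates other pro-MMPs (ENSMUSG00000043613, chromosome 9, 7445822 to 7455975), had 4 and 3 counts in control and 58, 43 and 99 in OA-AP. Its level was 0.321 ± 0.031 CPM (SD, n = 2) in control and 3.56 ± 1.43 CPM (SD, n = 3) in OA-AP. The groups did not overlap, and OA-AP replicate 3 was the highest. The log2 fold change was 3.43 ± 0.55 (SE), with an edgeR adjusted p of 0.0027.

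Mmp7, or matrilysin, a short MMP expressed by glandular epithelium (ENSMUSG00000018623, chromosome 9, 7692090 to 7699585), had 4 and 1 counts in control and 86, 62 and 74 in OA-AP. Controls averaged 0.221 ± 0.172 CPM (SD, n = 2) and OA-AP libraries 3.98 ± 0.49 CPM (SD, n = 3), and the groups did not overlap. The log2 fold change was 4.07 ± 0.50 (SE), with an edgeR adjusted p of 0.00095, the smallest among the members in the pancreas. It was 5.22 without control replicate 1 and 3.51 without control replicate 2. Across the 3 OA-AP libraries Mmp7 varied less than Mmp3.

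Beside these 3 rises, 9 of 12 acinar markers passed the test downwards and 0 upwards in the pancreas, against 13.5% and 16.2% of all genes. The summed level of the 12 was 616108 and 722824 CPM in control and 290835 to 376798 CPM in OA-AP. Of 5 tested ductal markers 1 passed, where 29.8% of all genes did. This was Epcam, which rose from 18.6 ± 0.51 to 65.7 ± 16.6 CPM. The ductal sum was 80.5 and 88.0 CPM in control and 106 to 200.05 CPM in OA-AP. The 4 ductal markers not called went both ways. On the log2 scale Krt19 and Spp1 changed by 0.75 and 0.30, and Sox9 and Krt7 by -0.48 and -0.47. The part of either cell type in the rise of Timp1, Mmp3 and Mmp7 was not tested.

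Among the members that did not pass the test, Mmp19, an MMP of basement membrane turnover, had 11 and 4 counts in control and 28, 28 and 64 in OA-AP, with a log2 fold change of 1.64 ± 0.59 (SE) and an edgeR adjusted p of 0.064. Timp4 had 6 and 4 counts in control and 22, 19 and 16 in OA-AP (log2 fold change 1.14 ± 0.52, adjusted p = 0.12 in edgeR). Of the 5894 exonic bases of Timp4, 90 are shared with Syn2 on the opposite strand, which had 96 to 280 counts in pancreas and 310 to 1002 in fat. With library totals alone, Mmp19 and Timp4 passed the threshold, and Mmp19 also passed with no filter on low counts. The Mmp19 value lay between 1.11 and 2.41 when any 1 library was left out. Timp2, the leading TIMP of the control pancreas, had 30.6 and 20.4 CPM in control and 12.5, 16.4 and 5.81 CPM in OA-AP, with no overlap. Its log2 fold change was -1.15 ± 0.42 (SE) with an edgeR adjusted p of 0.081, and it passed in DESeq2 and without OA-AP replicate 2 or 3. Over all the alternatives tried, its adjusted p lay between 0.0035 and 0.52. The lowest of its 5 levels was in OA-AP replicate 3.

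Timp3 was at 14.1 and 14.7 CPM in control and 10.01 to 12.7 CPM in OA-AP (log2 fold change -0.36 ± 0.17). Of its 8144 exonic bases, 1733 are shared with Syn3 on the opposite strand, which had 2 to 11 counts in pancreas and 19 to 62 in fat. Mmp2, or gelatinase A, was at 4.29 and 5.49 CPM in control and 3.03 to 4.58 CPM in OA-AP (-0.47 ± 0.29). The values of Timp3 and Mmp2 turned positive with library totals alone, to 0.36 and 0.24. Mmp14, the membrane-bound collagenase that activates pro-MMP2, was at 4.39 and 6.09 CPM in control and 5.95 to 7.95 CPM in OA-AP (0.35 ± 0.25), and with library totals alone it passed the threshold upwards. Mmp12, or macrophage elastase, had 0 counts in 4 pancreas libraries and 2 in OA-AP replicate 3, where 0 counts allow up to 3 counts per library, or 0.157 to 0.299 CPM, for counting error only. Of the 9 tested members, 7 had CPM that did not overlap between the groups, Mmp2 and Mmp14 being the exceptions, against 62.3% of all tested genes, and 5 of the 7 are the genes that reached the filter through the OA-AP libraries.

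**Figure D1:**
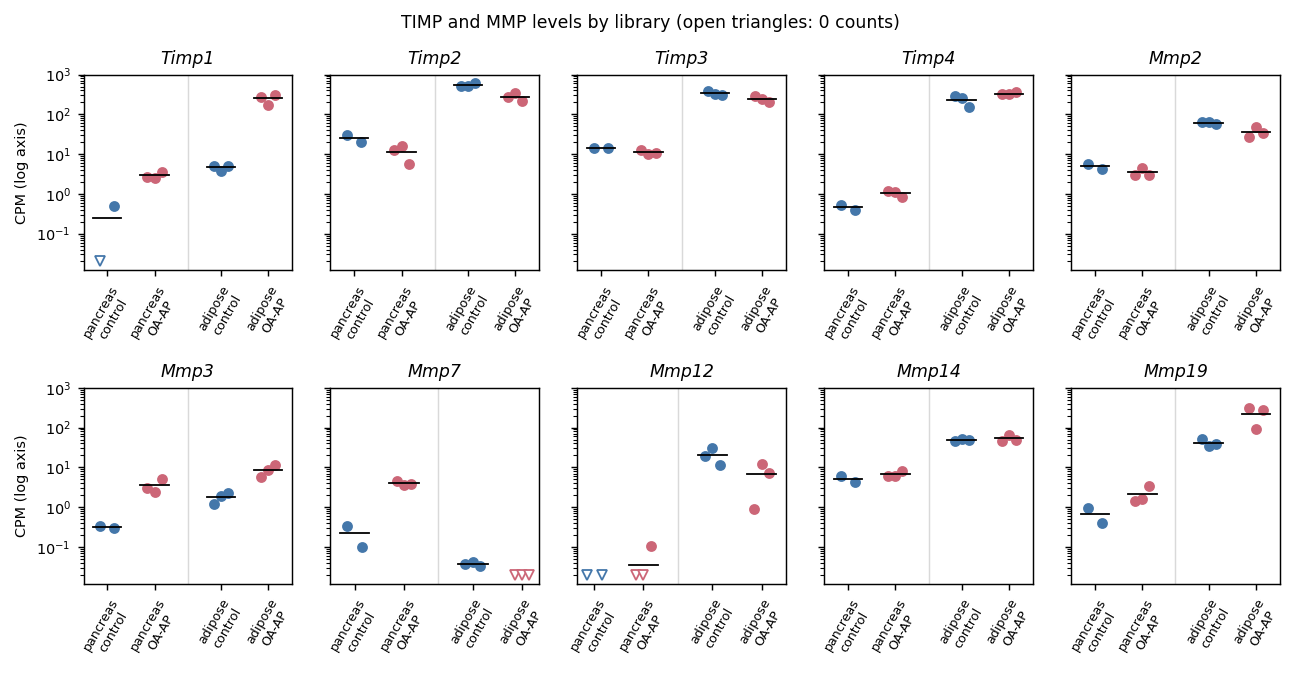
CPM of each of the 10 genes in every library on a log axis, with control in blue and OA-AP in red, a black bar at the group mean and open triangles for 0 counts. Timp1 moved from 3.81 to 5.11 CPM in control fat to 172 to 308 CPM in OA-AP fat, and Mmp7 was seen above 1 count only in the pancreas.

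In fat, Timp1, Mmp19 and Mmp3 rose and Timp2 and Mmp2 fell, so 5 of 9 tested members passed the threshold, 3 upwards and 2 downwards. Over all 15839 genes tested, 25.1% passed, 12.1% upwards and 13% downwards. Mmp7, with 1 count in each control and 0 in each OA-AP library, could not be tested. On the log2 scale the members' median change was 0.14, against -0.01 over all genes tested.

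Timp1 had 136, 90 and 150 counts in control fat and 5361, 3582 and 6096 in OA-AP. Controls averaged 4.65 ± 0.72 CPM and OA-AP libraries 253 ± 71.3 CPM (SD, n = 3 each). The lowest OA-AP library, replicate 2, was far above every control. The log2 fold change was 5.76 ± 0.28 (SE), with an edgeR adjusted p of 0.00018, and it lay between 5.60 and 5.98 when any 1 library was left out.

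Mmp19 (ENSMUSG00000025355, chromosome 10, 128790910 to 128800824) had 1439, 824 and 1119 counts in control and 5853, 1866 and 5354 in OA-AP. The mean was 42.0 ± 9.72 CPM in control and 221 ± 115 CPM in OA-AP (SD, n = 3 each). OA-AP replicate 2, at 89.7 CPM, was well below the other two at 270 and 303 CPM, but above all controls. The log2 fold change was 2.39 ± 0.45 (SE), with an edgeR adjusted p of 0.0084. It did not pass when no filter on low counts was used (adjusted p = 0.055), and over all alternatives its adjusted p lay between 9.3e-09 and 0.055. Of its 3533 exonic bases, 789 are shared with Tmem198b on the opposite strand (25 to 41 counts in pancreas, 252 to 539 in fat), and the strand setting of the counting is not given in the sources used here.

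Mmp3 had 33, 44 and 67 counts in control fat and 110, 183 and 224 in OA-AP. Controls averaged 1.79 ± 0.54 CPM and OA-AP libraries 8.60 ± 2.81 CPM (SD, n = 3 each), with no overlap. It had a log2 fold change of 2.26 ± 0.33 (SE) and an edgeR adjusted p of 0.0028.

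Timp2 (ENSMUSG00000017466, chromosome 11, 118301069 to 118355740) had 516, 503 and 599 CPM in control fat and 268, 342 and 219 CPM in OA-AP, each OA-AP library below each control. The log2 fold change was -0.96 ± 0.18 (SE), with an edgeR adjusted p of 0.0067. Mmp2 (ENSMUSG00000031740, chromosome 8, 92827291 to 92853420) had 63.1, 64.1 and 58.0 CPM in control and 26.7, 47.2 and 33.3 CPM in OA-AP. Its log2 fold change was -0.79 ± 0.20 (SE), with an edgeR adjusted p of 0.020. The Mmp2 call was lost without any 1 of the 3 controls and without OA-AP replicate 3, with values between -1.04 and -0.61 over the libraries left out. Beside these falls, 5 of 8 fibroblast markers passed the test downwards in fat, against 13% of all genes tested. The summed level of the 8 was 3531 to 4368 CPM in control and 2100 to 2732 CPM in OA-AP. The 3 fibroblast markers not called, Pdgfra, Pi16 and Dpt, had log2 fold changes of 0.39, 0.32 and 0.06. The part of the fibroblast markers in the fall of Timp2 and Mmp2 was not tested.

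Timp4 had 283, 259 and 156 CPM in control fat and 316, 317 and 364 CPM in OA-AP, with no overlap and a log2 fold change of 0.52 ± 0.22 (SE), which did not pass (adjusted p = 0.11 in edgeR). Timp3 had 384, 331 and 300 CPM in control and 293, 248 and 203 CPM in OA-AP (-0.45 ± 0.16, adjusted p = 0.069 in edgeR), and it passed with library totals alone. Mmp12 varied widely, with 533, 732 and 332 counts in control and 17, 257 and 144 in OA-AP. Its groups overlapped, and the log2 fold change of -1.59 ± 0.77 did not pass (adjusted p = 0.15 in edgeR). The summed level of 9 macrophage markers was 969 to 1240 CPM in control and 982 to 1480 CPM in OA-AP fat. Of these markers 2 were called upwards and 1 downwards, where 12.1% of all genes were up and 13% down. Mmp14 was at 46.6 to 50.3 CPM in control and 46.6 to 65.6 CPM in OA-AP (0.14 ± 0.14). Of the 9 tested members, 7 did not overlap between the groups, Mmp12 and Mmp14 being the exceptions, against 52.4% of all tested genes.

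**Figure D2:**
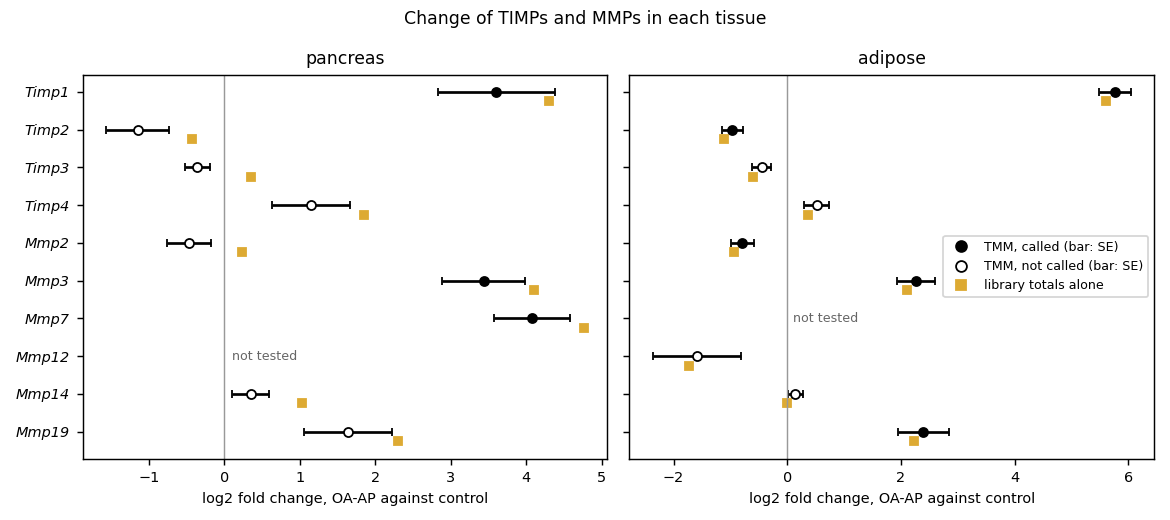
Log2 fold change of OA-AP against control for the 10 genes in each tissue, with circles and SE bars from edgeR on TMM-scaled counts (filled where called) and squares from library totals alone. In the pancreas the squares lie to the right of the circles, with Timp3 and Mmp2 on opposite sides of 0, and in fat both scalings lie close together.

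The difference between the tissues in the response was tested directly in 11 libraries and 17046 genes with a tissue-by-condition term, called on the adjusted p alone, which 21.3% of all genes passed. Of the 10 members 1 passed, Mmp7 (edgeR adjusted p = 0.0070), which went from 1 or 4 counts to 62 to 86 in the pancreas and had at most 1 count in every fat library. It reached this test through the OA-AP pancreas libraries where it was high, so the call describes a gene seen in 1 tissue. No fold is given, since fat held at most 1 count per library. The log2 difference, fat minus pancreas, was 2.09 ± 1.11 (SE) for Timp1, with an edgeR adjusted p of 0.22, and -1.21 ± 0.73 for Mmp3 (adjusted p = 0.28 in edgeR), and neither passed. DESeq2 called Timp1 as well. For Timp1 the value rested on the few counts of the control pancreas and was -4.73 without control replicate 2. Tests that miss the threshold do not show that the responses were alike.

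The make-up of each family is given as shares of summed CPM per kb, which do not depend on how libraries are scaled. In the pancreas Timp1 went from 3.66 ± 5.17% of the 4 TIMPs (SD, n = 2) to 43.1 ± 12.6% (SD, n = 3), while Timp2 went from 74.8 ± 9.11% to 37.0 ± 14.3%. Among the MMPs, Mmp7 went from 6.65 ± 3.85% to 44.3 ± 6.87% and Mmp2 from 50.5 ± 4.20% to 12.8 ± 4.70%. In fat Timp1 went from 2.33 ± 0.32% to 63.4 ± 9.28% of the TIMPs and Timp2 from 61.7 ± 6.46% to 16.7 ± 6.51% (SD, n = 3 each). Mmp19 went from 28.0 ± 5.15% to 67.1 ± 19.9% of the MMPs and Mmp2 from 43.4 ± 1.56% to 13.9 ± 9.27%. These 8 shares were chosen after their values were seen, and shares of a family sum to 100%, so they are not independent. Of the 20 shares in all, 14 did not overlap between the groups, these 8 among them, each with an exact two-sided permutation p of 0.1, the smallest that 2 against 3 or 3 against 3 allow. The other 6, Timp3, Mmp12 and Mmp19 in the pancreas and Timp4, Mmp3 and Mmp14 in fat, overlapped. The 14 include Mmp7 in fat, which had 1 count in each control and 0 in each OA-AP library. By CPM, a measure unlike these shares, 62.3% of all tested genes in the pancreas and 52.4% in fat did not overlap. Mmp2's own CPM overlapped in the pancreas.

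**Figure D3:**
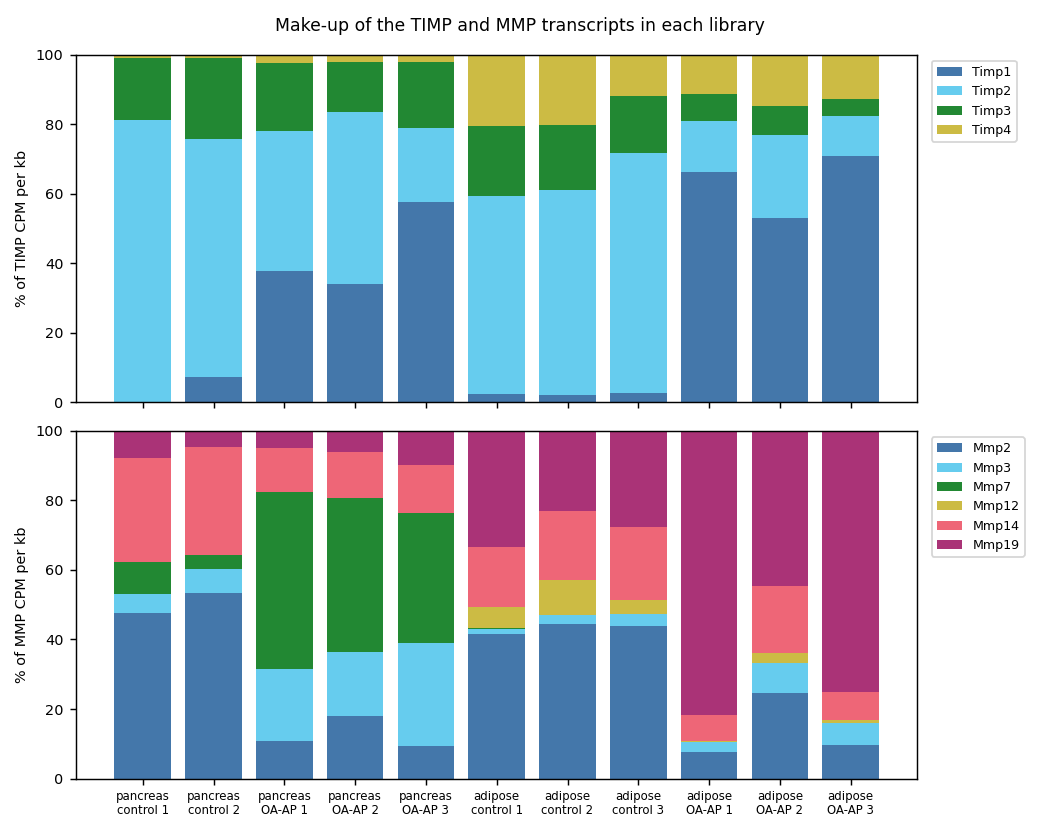
Stacked bars give each gene's percent of the summed CPM per kb of the 4 TIMPs (upper panel) and of the 6 MMPs (lower panel) in each of the 11 libraries. Timp1 makes up 34.1 to 57.5% of the TIMP level in OA-AP pancreas and 53.0 to 70.8% in OA-AP fat, and Mmp7 leads the MMPs in each OA-AP pancreas.

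The ratio of the summed TIMP level to the summed MMP level in the pancreas was 3.02 ± 0.29 in control (SD, n = 2) and 0.940 ± 0.21 in OA-AP (SD, n = 3). The values were 2.82 and 3.22 in control and 0.719 to 1.14 in OA-AP, with no overlap and the smallest possible exact permutation p of 0.1. The summed MMP level was 2.91 CPM per kb in control and 8.49 in OA-AP, without overlap, whereas the TIMP sum, 8.68 against 7.82, overlapped. In fat both sums were higher in OA-AP, the TIMP sum at 442 against 225 and the MMP sum at 88.0 against 42.3 CPM per kb, and the ratio was 5.32 ± 0.32 in control and 5.24 ± 1.04 in OA-AP (SD, n = 3 each). These ratios overlapped (exact permutation p = 1). These sums depend on the division by gene length. In CPM the TIMP sum in fat overlapped, at 1060 to 1187 in control and 1080 to 1156 in OA-AP. The MMP sum in fat was 159 to 184 CPM in control and 224 to 383 CPM in OA-AP. A ratio of these CPM sums would thus be lower in OA-AP fat. The TIMP sum in the pancreas did not overlap in CPM, at 35.99 or more in control and 30.03 or less in OA-AP. The ratio in CPM per kb covers the 6 MMPs named here. With all 23 MMP genes it was 0.878 in control pancreas and 0.292 in OA-AP, and 2.63 in control fat and 3.69 in OA-AP, where the groups then did not overlap.

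**Figure D4:**
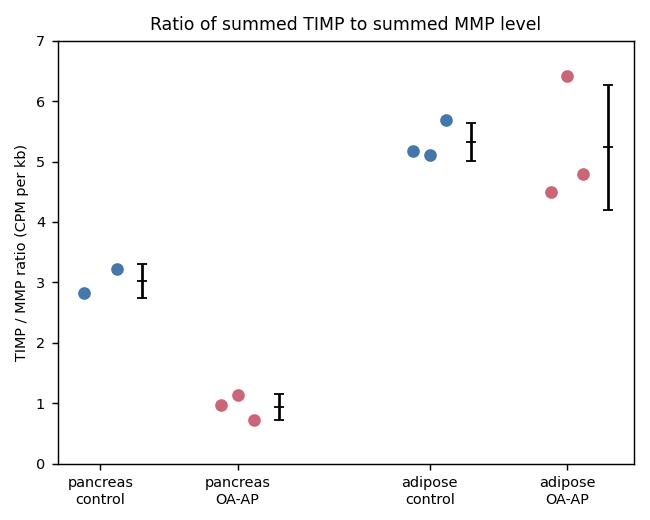
Ratio of the summed CPM per kb of 4 TIMPs to that of 6 MMPs in each library (points), with the group mean and SD beside them. The OA-AP pancreata sit between 0.719 and 1.14, below both controls, and the fat groups overlap.

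Ordered by CPM per kb, Timp2 led the control pancreas at 6.55, before Timp3 at 1.76, Mmp2 at 1.45 and Mmp14 at 0.879, and none of these neighbours overlapped. In OA-AP pancreas the order began with Mmp7 at 3.72, Timp1 at 3.31, Timp2 at 2.97 and Mmp3 at 1.98, with each of these overlapping the next. In control fat Timp2 led at 138 and did not overlap Timp3 at 41.5, which overlapped Timp4 at 39.5. In OA-AP fat Timp1 led at 285 and did not overlap Timp2 at 71.0, which overlapped Mmp19 at 62.6. All 10 members except Mmp7 were at higher mean levels in fat than in pancreas within the same condition, on scales that were set separately for each tissue.

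Of the other MMPs, 17 genes, 3 were tested in the pancreas. Of these 1 rose and 0 fell, where 16.2% of all genes were up and 13.5% down. Mmp15, a membrane-type MMP of epithelium, rose from 30.8 ± 3.07 to 87.0 ± 37.3 CPM (log2 fold change 1.497 ± 0.38, edgeR adjusted p = 0.025). In fat 8 were tested, with 1 up and 2 down (12.1% and 13% of all genes). Mmp8, the neutrophil collagenase, rose from 0.264 ± 0.156 to 26.6 ± 8.14 CPM (edgeR adjusted p = 0.00027), and Mmp28 and Mmp23 fell, by 1.69 and by 1.14 on the log2 scale. Among the other MMPs tested the median change was 1.57 on the log2 scale in pancreas and -0.60 in fat. Over all genes tested it was 0.04 and -0.01. The pancreas median is the value of Mmp9, 1 of the 3 tested there, which was not called (edgeR adjusted p = 0.18). Mmp8 was at 0.043 CPM in control pancreas and 2.47 CPM in OA-AP, so the filter on low counts favours the pancreas median. In fat 6 of 7 tested neutrophil markers, a list that holds Mmp8 itself, passed the test upwards, against 12.1% of all genes tested. Mmp8 and Cxcr2 averaged 0.264 and 0.329 CPM in control fat, under the filter's cutoff of 0.455 CPM. They reached the test through the OA-AP libraries where they were high, so the filter favours this count and the Mmp8 call. The summed level of the neutrophil list in fat was 17.6 to 36.3 CPM in control and 188 to 211 CPM in OA-AP. In the pancreas 0 of 8 tested neutrophil markers passed, where 29.8% of all genes did. Their sum was 2.06 and 2.89 CPM in control and 15.7, 4.63 and 109 CPM in OA-AP, so OA-AP replicate 3 stood apart. Timp1, Mmp3 and Mmp7 were still called without that library. The part of neutrophils in the levels of these genes was not tested.

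Of 19 ADAMTS proteases, relatives of the MMPs of which some cleave aggrecan and versican, 9 were tested in the pancreas. Of these 2 were up and 1 down, where 16.2% of all genes were up and 13.5% down. Adamts1 rose by a log2 fold change of 2.45 ± 0.47 and Adamts15 by 2.16 ± 0.40, and Adamts16 fell by 4.49. In fat 16 were tested, with 5 up and 3 down (12.1% and 13% of all genes), led by Adamts1 (2.10 ± 0.20), Adamts4 (3.56 ± 0.32) and Adamts9 (1.503 ± 0.18). Their median changes on the log2 scale were 0.89 in pancreas and 0.30 in fat.

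The list of MMP regulators, 14 genes, includes the proprotein convertase Furin, thrombospondins and cell surface receptors. Of 12 tested in the pancreas 6 rose and 1 fell, against 16.2% and 13.5% of all genes. Furin, which activates membrane-type MMPs, rose from 50.5 ± 6.53 to 106 ± 19.6 CPM (edgeR adjusted p = 0.0037), and Bsg, an inducer of MMPs, fell from 153 ± 9.25 to 88.4 ± 7.31 CPM (edgeR adjusted p = 0.0030). Of 12 tested in fat 5 rose and 1 fell, against 12.1% and 13% of all genes, with Thbs2 at a log2 fold change of 2.17 ± 0.12, Plaur, the urokinase receptor, at 1.70 ± 0.17 and Furin at 0.76 ± 0.08. The medians were 0.59 and 0.35.

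All 18 matrix substrates were tested in both tissues. In the pancreas 3 rose and 2 fell, and in fat 4 rose and 4 fell, with medians of -0.32 and -0.11. The calls over all genes were 29.8% in the pancreas and 25.1% in fat. The same 3 genes had the smallest p in each tissue. Col4a1 and Col4a2, the chains of basement membrane collagen, rose by 1.22 ± 0.18 and 1.28 ± 0.21 in the pancreas and by 1.34 ± 0.18 and 1.30 ± 0.17 in fat on the log2 scale, and Vcan, the proteoglycan versican, by 1.98 ± 0.43 and 2.65 ± 0.22.

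The genes whose levels were most like that of Timp1 over the 11 libraries, as log2 CPM centred within each tissue, were Rnd1, Eif3j1, Mdm2, Rad23b and Ccdc86, with Pearson r from 0.979 to 0.986. For Mmp3 they were Fam8a1, Bax, Cap1, Tpm4 and Tbrg1, with r from 0.982 to 0.987. The points share the condition, so these values describe a likeness and carry no test.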

How the data were processed

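Total RNA of pancreas and epididymal fat was sequenced by the authors as paired-end libraries. Per the study's methods they trimmed reads with Trim Galore 0.6.6, checked them with fastp 0.20.1, mapped them with STAR 2.7.4a to GRCm38 and counted them with featureCounts 2.0.1. The deposited values are raw counts per gene, 1 table per tissue, with a gene length. The annotation release and strand setting are not given in the sources used here. The start and end of all 10 genes matched GENCODE M21.

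Genes were filtered with filterByExpr (minimum count 10), scaled by TMM and tested with edgeR 4.0.16 (quasi-likelihood, robust, R 4.3.3, limma 3.58.1), each tissue alone and both tissues for the tissue-by-condition term, with Benjamini-Hochberg adjustment over all genes tested. A call needed an adjusted p under 0.05 and, within a tissue, a fold of at least 1.5. SE is the log2 fold change over the square root of F. DESeq2 1.42.0, other scalings, filters, a replicate block and leaving out each library were the alternatives, and the all-MMP ratio was added after seeing the data. The scripts were tested on simulated data. The 10 genes and the lists were chosen with earlier results of these data known. From each list, up to 3 called genes per tissue with the smallest p are named, and for Timp1 and Mmp3 the 5 genes of highest r. The values of 1 gene that this rule named are not reported here. Replicates of each group differed by more than sampling noise (lowest chi-square per degree of freedom 6.91). Intervals and floors cover counting error only.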

Additional observations from a re-analysis of the deposited data

Results flagged for a closer look

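Mmp7 differed between the tissues in its response to OA-AP, by the tissue-by-condition term of edgeR (adjusted p = 0.00704). It reached this test through the OA-AP pancreas libraries where it was high, so the call describes a gene seen in 1 tissue. It was at 62 to 86 counts in the OA-AP pancreata, at 1 and 4 in the control pancreata and at 0 or 1 in each of the 6 fat libraries. Its exons share 123 of 1068 bases with AV064505, a gene on the opposite strand that had 0 counts in both tissues. No group had the 4 or more libraries needed to look for single libraries far from the rest.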

How the results depend on the processing

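In the pancreas 3834 genes were called, 6349 with library totals alone, and 1495 to 4265 with 1 library left out, the fewest being 1687 without control replicate 1 and 1495 without control replicate 2. The 3 member calls became 6 with library totals alone and 0 with at least 10 counts in every library, which removes Timp1, Mmp3 and Mmp7 from the test by construction, and were 3 to 4 with 1 library left out. In fat the counts of genes (2865 to 4476) and members (4 to 5) with 1 library left out stayed within 1.5 times of those reported, 3981 and 5.

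The tissue-by-condition term called 3636 genes, 6662 with library totals alone, 2156 with the replicate block and 2334 to 3857 with 1 library left out, the fewest without pancreas control replicate 2. Its 1 member call became 2 with DESeq2, 6 with library totals alone and 0 with the replicate block, and it stayed 1 with any 1 library left out.

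With library totals alone the sign turned for Timp3 (0.36) and Mmp2 (0.24) in the pancreas, Mmp14 in fat (-0.0021), and, in the tissue difference, Timp2 (-0.68) and Mmp19 (-0.070). With 1 library left out it turned for Mmp14 in fat (-0.015 without OA-AP replicate 2). In the tissue difference it turned for Timp1 (-4.73) and Mmp14 (0.015) without pancreas control replicate 2, for Timp2 (-0.16) and Mmp19 (-0.058) without pancreas control replicate 1, and for Timp2 without pancreas OA-AP replicate 3 (-0.14) or fat OA-AP replicate 2 (-0.071). Over the libraries left out, Mmp14 in fat reached 0.25 at most, and the tissue differences reached 3.18 for Timp1, 0.51 for Timp2 and 1.23 for Mmp19, while Mmp14 went down to -0.48. None of these values was called as reported, and the cause was not tested.

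Deviations of same-numbered libraries from their group means correlated at -0.16 to 0.056 between conditions and at -0.012 to 0.090 between tissues. With 2 or 3 libraries per group, these values cannot tell whether same-numbered libraries came from the same mouse. With the block, pancreas member calls went from 3 to 4 (Timp2 added), fat kept 5 calls, and the Mmp7 tissue difference had an adjusted p of 0.071 in edgeR. Pancreas results rest on 2 control libraries, and Timp1, Mmp3 and Mmp7 on at most 5 counts in each.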
